A study of Vitis vinifera with 24 samples.

Results

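The last week of ripening was followed in whole Sauvignon blanc berries of unfertilized vines in 2014, from 28 days after mid-veraison (v + 28, mid-ripening) to 35 days (v + 35, ripeness). Mid-veraison is the midpoint of berry softening. The comparison rests on 6 of the 24 libraries of the series, 3 for each stage, which were chosen by treatment, year and stage and not by any measured value. The other libraries of 2014 came from vines of the soil N100 treatment, which received nitrogen on the soil at bud break and at flowering, while control vines received none. In 2013 the same groups were sampled on another clone and another rootstock. All vines grew at the Bordeaux site, on plots picked for a low nitrogen status, and each library held RNA of berries from separate field blocks, so the replicates are biological but each is a mixture of many berries.

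Grape berries soften, swell and store hexoses after veraison, while malate falls, chlorophyll is lost and the walls of the flesh cells are loosened by expansins and by enzymes that act on pectin and xyloglucan. Thaumatin-like proteins, osmotins and chitinases build up in the ripening flesh and skin and are known as the proteins that cloud white wines. A whole berry also holds seeds, whose oleosins, storage globulins and late embryogenesis abundant (LEA) proteins are made during seed maturation. No gene was deleted or overexpressed in these vines, and the files hold no sequences, so genes are given by their V1 annotation identifiers and, where the tables of the study describe them, by name.

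The libraries held 49.0 to 80.0 M reads in listed genes, and 17171 genes passed a mean of 0.5 RPKM (reads per kilobase of exon, scaled to the mapped reads of a library) over the 12 libraries of 2014. Replicates of (v + 28) control berries correlated at 0.989 or above. The 3 libraries of (v + 35) control berries were less alike. Replicate 1 correlated at 0.9699 with replicate 2, the lowest value within a group of 2014. In replicate 1, 421 genes lay more than 1 log2 unit above the mean of the other (v + 35) control libraries and 15 lay as far below it. Replicate 2 had 97 such genes above and 294 below, and replicate 3 had 32 above and 229 below. The median SD of a gene between replicates was 0.17 on the log2 scale at (v + 35) and 0.142 at (v + 28), against 0.101 and 0.113 in soil N100 berries at the same stages.

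The genes that separated replicate 1 of (v + 35) included defence and phenylpropanoid genes. An extracellular dermal glycoprotein gene (VIT_07s0104g00180) stood at 91.1 RPKM there and at 2.08 and 3.61 RPKM in the other replicates. An MLP-like protein gene (VIT_05s0077g01530), of a family related to ripening and pathogenesis proteins, stood at 99.1 RPKM against 3.48 and 3.68. Phenylalanine ammonia lyase, the entry enzyme of phenylpropanoid synthesis (VIT_08s0040g01710), stood at 68.5 RPKM against 8.10 and 4.19. All 3 genes were therefore high in a single library and did not pass the test of the stages, with adjusted p of 0.338, 0.473 and 0.23. A basic chitinase (VIT_03s0038g03400) followed the same pattern with 36.4, 2.67 and 2.34 RPKM.

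The libraries could also be placed on genes chosen without them. In control berries of 2013, 656 of the genes tested in 2014 had risen and 746 had fallen between the same stages. The mean centred log2 value of the first set minus that of the second was -0.51, -0.44 and -0.02 in the (v + 28) libraries of 2014, replicates 1 to 3, and 0.44, 0.18 and 0.45 in the (v + 35) libraries. The stages did not overlap. Replicate 3 of (v + 28) and replicate 2 of (v + 35) were the nearest to each other, and replicate 1 of (v + 28) and replicate 3 of (v + 35) were the farthest apart. Soil N100 berries were more uniform, with -0.37 to -0.17 at (v + 28) and 0.22 to 0.27 at (v + 35).

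**Figure D1:**
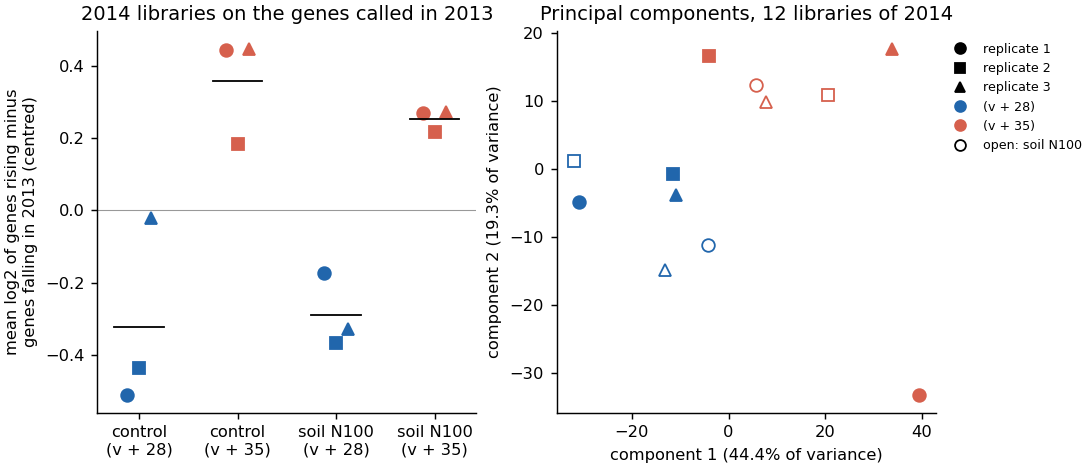
The left panel plots, for each library of 2014, the mean centred log2 value of genes that rose in control berries of 2013 minus that of genes that fell, with the group mean as a line. The right panel plots the first 2 principal components of log2(RPKM + 0.5), filled symbols for control and open symbols for soil N100 berries. Replicate 1 of (v + 35) control berries lies apart at -33.29 on component 2, and replicate 2 of that group lies at -4.1 on component 1, near the (v + 28) libraries.

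Late ripening in control berries of 2014 was marked by more losses than gains of transcripts. Calls required a log2 fold change (LFC, of RPKM + 0.5) of at least 0.6 in size together with an adjusted p no higher than 0.05 (limma, Benjamini-Hochberg over all genes tested). At (v + 35), 87 genes were called higher and 271 lower than at (v + 28), which is 0.507 and 1.58% of the genes tested and 2.08% together. The called genes that rose had a median LFC of 0.81 and the genes that fell one of -0.82, and the extremes were 1.98 and -2.83. In 356 of the 358 called genes the libraries of one stage did not overlap with those of the other, a separation seen in 22.9% of all genes tested (8.42% upwards and 14.4% downwards). The median LFC of all genes was -0.04. A description was available for 75 of the called genes, of which 16 rose and 59 fell, and the other 283 had none. Described genes are listed in the study for a response to nitrogen, most of them in the 2013 libraries, so they are no random sample of the genome: 13% of the 579 tested were called. Counts of called list members below are to be read beside that share and the 2.08% of all genes.

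The number of calls depended on single libraries. It fell to 58 without replicate 1 of (v + 28) and likewise to 58 without replicate 3 of (v + 35), to 186 without replicate 2 of (v + 28) and to 181 without replicate 1 of (v + 35). It rose to 478 without replicate 3 of (v + 28) and to 1602 without replicate 2 of (v + 35). Of the 358 genes, 48 (13.4%) were called in each of these 6 fits, 2 that rose and 46 that fell, and all 358 kept their direction in each. When the 6 control libraries were fitted alone, without the spread of the soil N100 groups, 4 genes passed, all lower at (v + 35). The 4 were SPX2 (VIT_11s0016g05330), a B-box zinc finger gene (VIT_14s0068g01380) and the undescribed genes VIT_01s0026g02710 and VIT_04s0008g00960. Of the 53 called genes picked by the rule for named genes, 9 were called in all 6 fits and 44 lost the call in at least 1, at adjusted p of 0.0522 to 0.204 in their weakest fit. Among these, 43 lost it without replicate 1 of (v + 28), 43 without replicate 3 of (v + 35), 37 without replicate 2 of (v + 28), 32 without replicate 1 of (v + 35) and 4 without replicate 3 of (v + 28).

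**Figure D2:**
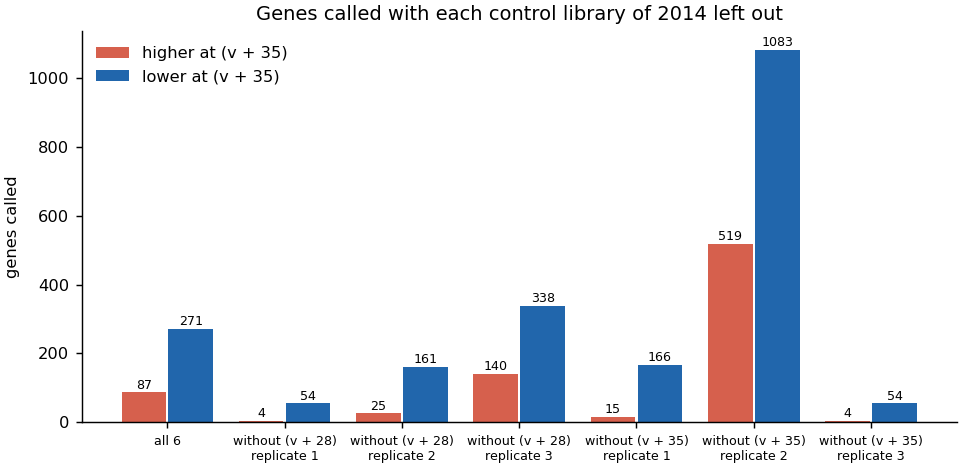
The bars give the number of genes called higher (red) and lower (blue) at (v + 35) in control berries of 2014, with all 6 libraries and with each control library left out in turn. The 87 higher and 271 lower calls become 4 and 54 without replicate 1 of (v + 28) or replicate 3 of (v + 35), and 519 and 1083 without replicate 2 of (v + 35).

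Genes tied to phosphate status were among the clearest losses. SPX domain proteins bind inositol pyrophosphates and, in Arabidopsis and rice, hold back the factors that switch on the phosphate starvation response. SPX2 (VIT_11s0016g05330) stood at 22.5, 20.3 and 20.4 RPKM in the mid-ripening libraries and at 6.37, 5.81 and 5.94 RPKM in those of ripeness. The lowest library of mid-ripening was thus more than 3 times the highest library of ripeness, and SPX2 fell by 1.72 on the log2 scale (SE 0.15, adjusted p = 0.00058). SPX3 (VIT_15s0048g00190) stood at 4.84, 5.90 and 5.52 RPKM and then at 2.50, 2.16 and 2.30 RPKM. It also fell without overlap, by 1.07 (SE 0.13, adjusted p = 0.00506), and both genes were called whichever control library was left out. They are among the 34 tested genes that the study chose on libraries of 2014, these control libraries included, so their direction is not independent evidence. The list of 4 phosphate genes held 2 called members, these same SPX genes, and its median LFC was -1.04 against -0.04 for all genes. The other members, an acid phosphatase gene and PHO2, a ubiquitin ligase of phosphate signalling, had LFC of -1.02 and -0.50 and did not pass (adjusted p = 0.101 and 0.081).

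Transcription factors and signalling genes followed. An AP2 domain factor (VIT_18s0001g03240) stood at 9.47, 9.83 and 8.06 RPKM at mid-ripening and at 3.62, 3.07 and 1.85 RPKM at (v + 35), and fell by 1.56 (SE 0.18, adjusted p = 0.00462). The B-box zinc finger gene VIT_14s0068g01380, from a family with known members in light signalling, stood at 3.66, 4.06 and 4.13 RPKM and then at 1.13, 1.20 and 1.20 RPKM. Its replicates were close within each stage and the fall of 1.41 (SE 0.13) had an adjusted p of 0.00112. These factors were called in every fit with a control library left out. NAC61 (VIT_17s0000g09310), a NAC domain factor, stood at 7.81, 6.10 and 5.02 RPKM and then at 3.50, 4.15 and 3.17 RPKM, a fall of 0.72 (SE 0.17, adjusted p = 0.042) that 2 of the 6 fits kept. TMK1 (VIT_04s0043g00160), a receptor kinase that acts in auxin signalling in Arabidopsis, dropped from 31.2, 20 and 16.6 RPKM to 7.84, 10.6 and 5.53 RPKM, with an LFC of -1.44 (SE 0.23, adjusted p = 0.0126), and lost the call only without replicate 3 of (v + 35). An auxin efflux carrier gene (VIT_04s0044g01860) fell by 0.65 (SE 0.16, adjusted p = 0.0472) and was the only one of the 6 auxin genes tested to be called.

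Of the AP2/ERF list, 1 of 5 tested members fell, the AP2 domain factor above, and the median LFC of the list was -0.05. Neither of the 2 WRKY genes nor of the 2 MYB genes passed. MYB24 (VIT_14s0066g01090) stood at 72.4, 79.3 and 127 RPKM and then at 159, 115 and 220 RPKM, so that the lowest ripe library lay below the highest mid-ripening one (LFC 0.82, SE 0.25, adjusted p = 0.0746). UGT85A1 (VIT_18s0001g05990), a glucosyltransferase that inactivates the cytokinin zeatin by O-glucosylation in Arabidopsis, stood at 12.8, 15.3 and 11.0 RPKM and then at 7.87, 7.62 and 6.14 RPKM. It fell by 0.81 (SE 0.16, adjusted p = 0.0232), whereas none of the 4 gibberellin genes was called, although all 4 had an LFC below 0 (-0.71 to -0.27).

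Several enzymes of the cell wall fell, although most members of each wall list did not pass. TCH4 (VIT_11s0052g01300), a xyloglucan endotransglucosylase that cuts and rejoins the tethers between cellulose fibrils, stood at 3.55, 2.38 and 2.94 RPKM at mid-ripening and at 0.693, 0.957 and 0.789 RPKM at (v + 35). The stages were well apart for TCH4, with 153 to 190 reads behind the first values and 40 to 83 behind the second, and it fell by 1.39 (SE 0.14, adjusted p = 0.00191). Undescribed genes with the same identifier stem, VIT_11s0052g01200 and VIT_11s0052g01260, fell by 2.35 (SE 0.30, adjusted p = 0.00532) and 2.01 (SE 0.30, adjusted p = 0.0102). All 3 genes were called in each fit with a control library left out. Expansin A6 (VIT_08s0007g00440), a wall-loosening protein, stood at 7.09, 4.50 and 2.72 RPKM and then at 1.68, 2.08 and 1.00 RPKM. Its mid-ripening libraries spread more than 2-fold, and the fall of 1.29 (SE 0.28, adjusted p = 0.0312) was kept in 2 of the 6 fits. Pectin methylesterase PME1 (VIT_09s0002g00330), which removes methyl groups from pectin, stood at 35.7, 19.8 and 16.2 RPKM and then at 11.2, 11.9 and 6.46 RPKM (LFC -1.20, SE 0.28, adjusted p = 0.038).

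Among glycosyltransferases that build wall polymers, 3 fell. LGT8 (VIT_01s0026g00980), described as a pectin galacturonosyltransferase, stood at 19.4, 13.6 and 11.0 RPKM and then at 6.34, 6.13 and 3.04 RPKM, a fall of 1.44 (SE 0.26, adjusted p = 0.0184). CSLC12 (VIT_18s0001g08580), of the family that makes the xyloglucan backbone, fell by 0.90 (SE 0.22, adjusted p = 0.0469), and a cellulose synthase gene (VIT_04s0069g00780) fell by 0.67 (SE 0.16, adjusted p = 0.0396). COBL4 (VIT_17s0000g05060), known in Arabidopsis as IRX6 for its part in the cellulose of secondary walls, went the other way. It stood at 0.617, 0.901 and 1.21 RPKM at mid-ripening and at 2.31, 1.86 and 2.69 RPKM at (v + 35). COBL4 was low at both stages but did not overlap, and it rose by 1.00 (SE 0.19, adjusted p = 0.0204), a call kept in 2 of the 6 fits.

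By list, 1 of 7 expansins, 1 of 10 pectin genes and 1 of 4 xyloglucan genes fell and none rose, while 2 of 6 cellulose and hemicellulose genes fell and 1 rose. The median LFC were -0.27, -0.58, -0.66 and -0.54, against -0.22 for all described genes and -0.04 for all genes. With 13% of described genes and 2.08% of all genes called, the shares of expansins (14.3%) and pectin genes (10.0%) were near that of described genes. The most abundant wall genes did not pass the test. Expansin B2 (VIT_15s0021g02700) stood at 2326, 2475 and 1764 RPKM and then at 1564, 2261 and 1675 RPKM, with overlapping stages (LFC -0.26, adjusted p = 0.304). The gene described as expansin A8 (VIT_13s0067g02930) stood at 1464, 1306 and 773 RPKM and then at 720, 1148 and 684 RPKM (LFC -0.46, adjusted p = 0.225). It was called in the fit without replicate 2 of (v + 35), and in control berries of 2013 it was called lower (LFC -0.63).

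Of 24 photosynthesis genes tested, 4 fell, none rose and 23 had an LFC below 0, with a median of -0.38. The share called was 16.7%, near the 13% of all described genes, of which 399 of 579 had an LFC below 0 with a median of -0.22, against 2.08% of all genes called. A photosystem II subunit gene (VIT_18s0001g11710) stood at 4.06, 4.43 and 2.66 RPKM at mid-ripening and at 1.22, 1.43 and 0.942 RPKM at (v + 35), and fell by 1.30 (SE 0.20, adjusted p = 0.0114). LHCB4 (VIT_08s0007g02190), the CP29 antenna protein of photosystem II, stood at 61.1, 54.1 and 43.9 RPKM and then at 31.3, 36.8 and 27.3 RPKM. No ripe library of LHCB4 reached the lowest mid-ripening one, and the fall was 0.72 (SE 0.14, adjusted p = 0.0248). Rubisco activase (RCA, VIT_13s0019g02050), which keeps the carbon-fixing enzyme active, fell by 0.76 (SE 0.15, adjusted p = 0.0248) from 1.78, 2.05 and 1.56 RPKM. PSAF (VIT_00s0125g00280), the photosystem I subunit that docks plastocyanin, fell by 0.70 (SE 0.18, adjusted p = 0.0493) from 39.5, 38.1 and 26.5 RPKM. The photosystem II subunit was called in 4 of the 6 fits with a library left out and the others in 2 of the 6.

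Summed over the 25 listed photosynthesis genes, the level was 898, 931 and 694 RPKM at (v + 28) and 673, 682 and 564 RPKM at (v + 35). All ripe libraries lay below all mid-ripening ones, and the nearest pair was replicate 3 of (v + 28) with replicate 2 of (v + 35). In bulk berries, a smaller share of green cells and less RNA per cell cannot be told apart. Chlorophyll synthesis had a called member in PORA (VIT_19s0014g03160), the light-dependent protochlorophyllide reductase. PORA stood at 24.1, 24.6 and 18.1 RPKM and then at 12.1, 12.5 and 9.13 RPKM, and fell by 0.96 (SE 0.15, adjusted p = 0.0114), a call kept in 5 of the 6 fits. The other 3 chlorophyll genes tested did not pass.

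Among the remaining described genes the largest fall of all was in a family 1 glycosyl transferase (VIT_06s0004g05660), an enzyme type that adds sugars to small molecules. It stood at 12.5, 4.34 and 6.99 RPKM at mid-ripening and at 0.458, 0.976 and 0.422 RPKM at (v + 35). These values rest on 623 to 1488 reads and on 49 to 189 reads, and the LFC was -2.83 (SE 0.35, adjusted p = 0.00506) and remained called in all 6 fits. A methyladenine glycosylase gene (VIT_01s0010g00020), of a DNA repair family, stood at 28.7, 17.0 and 9.66 RPKM and then at 3.76, 6.35 and 2.59 RPKM, a fall of 1.95 (SE 0.35, adjusted p = 0.018). An ABC transporter gene (VIT_16s0050g01620) fell by 1.36 (SE 0.34, adjusted p = 0.0481), beta-6 tubulin (TUB6, VIT_08s0040g00980) by 1.03 (SE 0.23, adjusted p = 0.0343) and an aspartyl protease gene (VIT_08s0007g02470) by 1.24 (SE 0.25, adjusted p = 0.0252). In each of these 3 genes the highest library was replicate 1 or 2 of (v + 28) and the lowest was replicate 3 of (v + 35). An RNA recognition motif gene (VIT_13s0019g03610), for a type of RNA-binding protein, stood at 3.85, 1.53 and 1.32 RPKM and then at 0.644, 0.518 and 0.179 RPKM, a fall of 1.45 (SE 0.34, adjusted p = 0.0408) from a high replicate 1. A DNAJ heat shock gene (VIT_03s0038g02110), a cochaperone, fell by 0.77 (SE 0.15, adjusted p = 0.0245). A copper chaperone-related gene (VIT_05s0077g01700) fell by 0.62 (SE 0.15, adjusted p = 0.0478), the only one of 8 metal genes to be called.

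**Figure D3:**
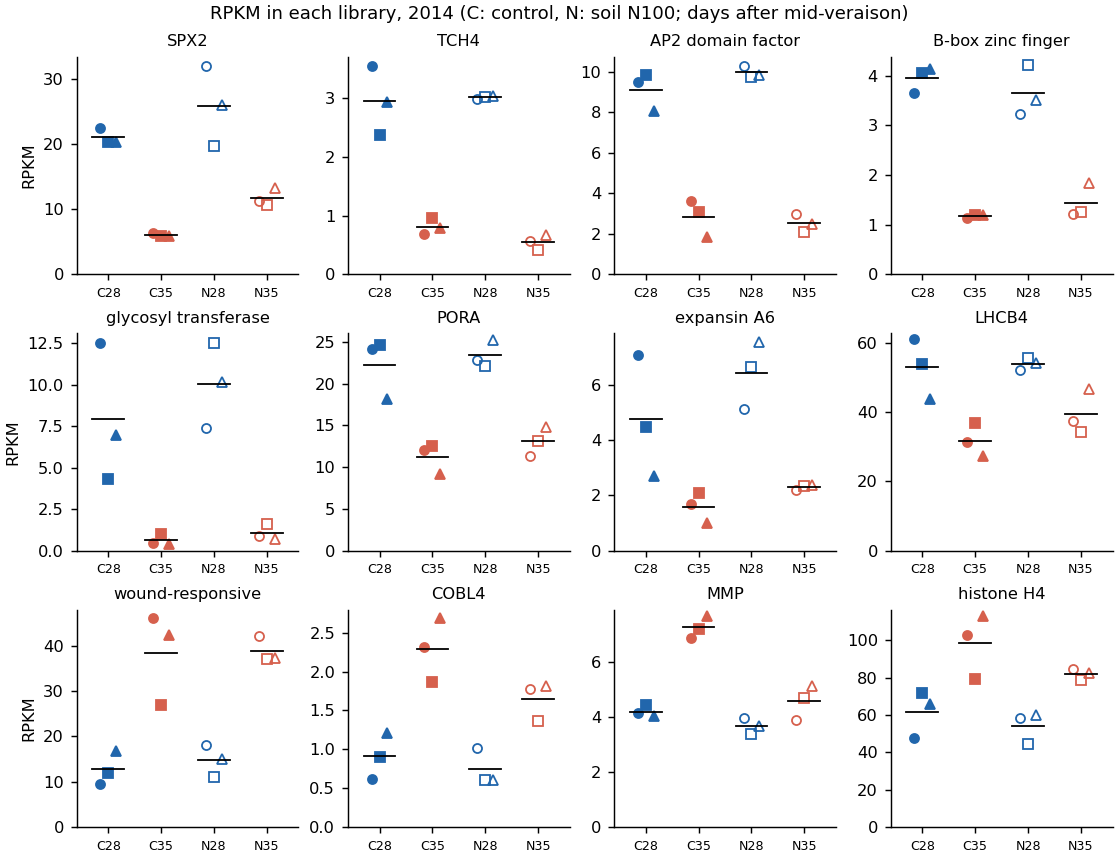
Each panel gives the RPKM of 1 gene in the 12 libraries of 2014, with filled symbols for control and open symbols for soil N100 berries, circles, squares and triangles for replicates 1, 2 and 3, and a line at the mean of each group. In control berries (C28, C35) the stages do not overlap for any of the 12 genes, from SPX2 at 20.3 RPKM or more against 6.37 RPKM or less to histone H4 at 71.8 RPKM or less against 79.6 RPKM or more. All 12 were picked among the called genes, of which 356 of 358 have this separation. It therefore follows from the choice of the genes.

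Fewer described genes rose, and the largest rise was in a run of wound-responsive family genes. Of the 7 tested genes with the stem VIT_12s0057 and this description, 4 were called and all 7 had an LFC above 0 (0.34 to 1.55). Among all 579 described genes 16 were called higher and 180 had an LFC above 0, and 0.507% of all genes were called higher. The strongest, VIT_12s0057g00070, stood at 9.56, 11.9 and 16.8 RPKM at mid-ripening and at 46.1, 26.9 and 42.4 RPKM at (v + 35). It rose by 1.55 (SE 0.24, adjusted p = 0.0114), a call kept in 4 of the 6 fits with a library left out. VIT_12s0057g00090 was the most abundant of the 4 and stood at 47.6, 61.4 and 69.3 RPKM and then at 126, 79.3 and 129 RPKM (LFC 0.89, SE 0.22, adjusted p = 0.0451). VIT_12s0057g00170 rose by 0.89 (SE 0.19, adjusted p = 0.0309) and VIT_12s0057g00120 by 0.87 (SE 0.19, adjusted p = 0.0339). In all 4 genes replicate 2 was the lowest of the ripe libraries. The members of this run are related genes and the reads were assigned only where they aligned uniquely, so their separate values are uncertain. Of the wider list of 16 defence and wound genes, 4 rose, these same genes, and 1 fell, ZPR1 (VIT_15s0048g00740), a small leucine zipper protein that is in the list only because its name contains PR1. The called share of that list was 31.2%, against 13% of described genes and 2.08% of all genes.

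A matrix metalloproteinase gene (MMP, VIT_14s0066g01950), for a zinc peptidase of the extracellular matrix, had the steadiest rise. MMP stood at 4.14, 4.43 and 4.03 RPKM at mid-ripening and at 6.90, 7.22 and 7.70 RPKM at (v + 35), and rose by 0.73 (SE 0.10, adjusted p = 0.00703) in every fit with a library left out. MMP is one of the genes that the study chose on the 2014 libraries, these control libraries included, so its direction is not independent evidence. VEP1 (VIT_05s0077g01300), a reductase named in Arabidopsis for its part in vein patterning, stood at 5.76, 4.49 and 7.32 RPKM and then at 13, 9.13 and 15.6 RPKM (LFC 1.03, SE 0.22, adjusted p = 0.0309). An S-adenosylmethionine-dependent methyltransferase gene (VIT_12s0057g01060) rose by 0.96 (SE 0.23, adjusted p = 0.0398) from 74.6, 84.3 and 135 RPKM to 176, 153 and 235 RPKM. In VEP1 and in the methyltransferase gene, replicate 3 was the highest library of each stage.

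Other described genes rose too, some of them from low levels. A hydrolase gene (VIT_07s0005g02420) rose by 1.10 (SE 0.25, adjusted p = 0.038) and a proline-rich protein gene (VIT_17s0000g06700) by 1.04 (SE 0.26, adjusted p = 0.0464). AGL62 (VIT_10s0003g03970), a MADS-box factor that controls endosperm cellularization in Arabidopsis, stood at 0.511, 0.553 and 0.910 RPKM and then at 1.42, 1.37 and 2.50 RPKM, values that rest on 20 to 95 reads. It rose by 0.95 (SE 0.21, adjusted p = 0.0357). Histone H4 (VIT_08s0007g00040), a core protein of nucleosomes, rose by 0.67 (SE 0.17, adjusted p = 0.0488), a call that only the fit without replicate 2 of (v + 35) kept. Among 8 genes of dividing cells, histone H4 rose, TUB6 fell and 6 did not pass. Phloem protein PP2-B13 (VIT_14s0060g02000), a lectin-type protein, stood at 29.6, 38.8 and 33.7 RPKM and then at 52.8, 44.8 and 62.5 RPKM (LFC 0.64, SE 0.13, adjusted p = 0.0248). It was the only call among 3 phloem protein genes (33.3%, against 13% of described genes and 2.08% of all genes). The others went in opposite directions, with LFC of -0.515 (VIT_14s0060g01990) and 0.475 (VIT_14s0060g02020). In soil N100 berries 1 of the 3 was called lower and none higher.

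The largest called rises among genes without a description were in VIT_15s0046g01570 and VIT_13s0019g00860. VIT_15s0046g01570 stood at 0.935, 1.40 and 2.58 RPKM and then at 5.27, 8.20 and 9.75 RPKM (LFC 1.98, SE 0.49, adjusted p = 0.0475), and VIT_13s0019g00860 at 48.8, 51.9 and 107 RPKM and then at 192, 148 and 270 RPKM (LFC 1.6, SE 0.41, adjusted p = 0.0498). Both calls were lost in 4 of the 6 fits with a library left out, those without replicate 1 or 2 of (v + 28) or replicate 1 or 3 of (v + 35).

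Transcripts for the proteins that ripe berries are best known for were abundant at both stages and were not called, and protein levels were not measured. Chitinase VIT_05s0094g00350 stood at 5371, 7589 and 4958 RPKM at mid-ripening and at 5747, 5783 and 4566 RPKM at (v + 35) (LFC -0.14, SE 0.17, adjusted p = 0.591). Osmotin OSM34 (VIT_02s0025g04310) stood at 912, 1153 and 841 RPKM and then at 1040, 1004 and 723 RPKM (LFC -0.08, SE 0.16, adjusted p = 0.768). The stages overlapped in both genes. Beta-1,3-glucanase BG1 (VIT_08s0007g06040), metallothionein 3 (VIT_19s0014g02740), SAG21 (VIT_07s0005g00660), a stress-related gene of the LEA type, and an electron carrier gene described by its heme binding (VIT_17s0000g05110) also stood at 681 RPKM or more in each control library with LFC of -0.23, -0.07, 0.24 and 0.25, and none was called. None of 6 osmotin and thaumatin genes, 4 chitinase genes and 4 members of the glucanase list passed, against 13% of described genes and 2.08% of all genes called. The glucanase list, built from words, also took in VIT_00s0386g00050 and VIT_10s0116g00520, which are in the xyloglucan list too. VIT_00s0386g00050 is described as a xyloglucan endotransglycosylase. These levels do not go against the label of ripening berries.

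Seed transcripts were present in every control library and overlapped between the stages. The summed level of 4 seed storage genes (2 oleosins and 2 cruciferins) was 197, 312 and 197 RPKM at (v + 28) and 271, 102 and 250 RPKM at (v + 35), with none at 0. The 10 LEA genes summed to 314, 396 and 269 RPKM and to 347, 195 and 369 RPKM. Replicate 2 was the highest library of mid-ripening and the lowest of ripeness in both lists. OLEO4 (VIT_17s0000g09000), an oil body protein of seeds, stood at 88.9, 122 and 65.2 RPKM and then at 97.9, 39.3 and 80.0 RPKM (LFC -0.40, SE 0.31, adjusted p = 0.388). No seed storage or LEA gene was called, where 13% of described genes and 2.08% of all genes were, and their median LFC were -0.25 and -0.09. The part of the seed share in the other changes was not tested.

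Several short lists of primary metabolism and transport gave no called member, where 13% of described genes and 2.08% of all genes were called. None of 9 sugar genes passed, and sucrose synthase SUS4 (VIT_11s0016g00470), which cleaves sucrose, stood at 53.2, 23.9 and 47.4 RPKM and then at 119, 35.8 and 22 RPKM. SUS4 and the NADP-malic enzyme gene (VIT_04s0008g00180), which degrades malate and stood at 64.4 RPKM in replicate 1 of (v + 35) and at 22.1 RPKM or less in the other control libraries, were both highest in the library that stands apart. All 3 water channel genes had an LFC below 0, and the most abundant, a gamma tonoplast intrinsic protein gene (VIT_08s0007g04780), stood at 296, 310 and 229 RPKM and then at 186, 243 and 176 RPKM (LFC -0.47, SE 0.14, adjusted p = 0.0717). Sulfate transporter SULTR3;5 (VIT_11s0016g04160) stood at 237, 175 and 127 RPKM and then at 113, 127 and 59.7 RPKM (LFC -0.87, SE 0.29, adjusted p = 0.0907).

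The genes picked for nitrate and nitrite use, peptide transport and glutathione transfer were not called between the stages. Nitrite reductase NIR1 (VIT_03s0063g00370), which makes ammonium from nitrite, stood at 40.8, 32.5 and 28.4 RPKM and then at 33.2, 30.9 and 27.0 RPKM (LFC -0.15, SE 0.12, adjusted p = 0.437). The nitrate transporter gene VIT_01s0026g01570 had an LFC of -0.44 (SE 0.22, adjusted p = 0.201) and the proton-dependent oligopeptide transport gene VIT_01s0011g03400 one of -0.14 (SE 0.21, adjusted p = 0.659). GSTU25 (VIT_19s0015g02680), a glutathione S-transferase, an enzyme type that joins glutathione to small molecules, stood at 21.0, 18.0 and 13.2 RPKM and then at 17.5, 13.4 and 16.2 RPKM (LFC -0.13, SE 0.21, adjusted p = 0.699). None of 5 nitrogen genes, 9 amino acid and peptide transport genes or 7 glutathione S-transferase genes passed. With 13% of described genes and 2.08% of all genes called, lists this short can hold no call without standing out. Oligopeptide transporter OPT1 (VIT_19s0015g00860) was at 0.247 to 0.468 RPKM in the control libraries, under the minimum for the test.

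**Figure D4:**
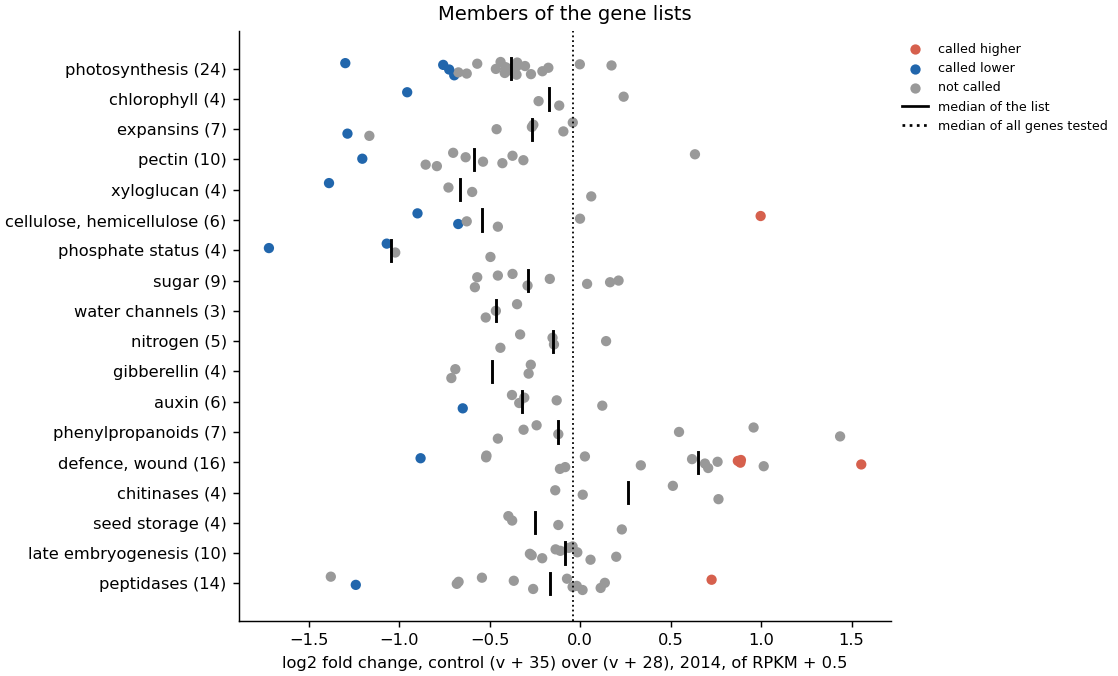
Each point is the LFC of 1 gene from (v + 28) to (v + 35) in control berries of 2014, in rows by gene list with the number of members tested in brackets, red for genes called higher, blue for genes called lower and grey for genes not called. The bar marks the median of a list and the dotted line the median of all genes (-0.04). The photosynthesis row lies left of that line in all but a few members, with a median of -0.38, while the defence and wound row has a median of 0.65.

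The same week in soil N100 berries, measured in 6 other libraries of 2014, gave changes of the same direction in most genes. There 15 genes were called higher (0.0874% of those tested) and 111 lower (0.646%), 0.734% together. These 126 calls fell to between 23 and 39 when any 1 soil N100 library was left out, and the shares of calls below depend on them. Of the 358 genes called in control berries, 357 had the same sign in soil N100 berries, where 82.0% of all genes tested agreed in sign, and their LFC correlated at r = 0.72 (rho = 0.629) across the genes that rose and at 0.861 (rho = 0.722) across those that fell. Across all 17171 genes, which are not independent replicates, r was 0.761 and rho 0.797. The treatments share no library, but all were fitted together. Genes called in both in the same direction numbered 96, which is 26.8% of the calls in control berries and 76.2% of those in soil N100 berries. The test of the difference between the treatments called no gene (0.0% of 17171; limma, lowest adjusted p = 0.9997), with 156 genes at an unadjusted p no higher than 0.05. No call came from limma-voom on the recovered reads either. The 156 genes are a smaller share than the 0.05 met on average where nothing differs, and the reason for this was not tested. That so few differ does not show that the treatments ripened alike, since the error of a difference is larger than that of a single change.

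SPX2 went from 32.1, 19.7 and 26.0 RPKM to 11.2, 10.7 and 13.2 RPKM in soil N100 berries (LFC -1.09) and was called there too. TCH4 went from 2.99, 3.02 and 3.05 RPKM to 0.567, 0.416 and 0.666 RPKM (LFC -1.75), and the AP2 domain factor from 10.3, 9.75 and 9.84 RPKM to 2.97, 2.1 and 2.50 RPKM (LFC -1.80). The glycosyl transferase VIT_06s0004g05660 had an LFC of -2.76 and the wound-responsive gene VIT_12s0057g00070 one of 1.40, and these 5 genes were called in both treatments. MMP had an LFC of 0.27 in soil N100 berries and was not called there, against 0.73 in control berries. The difference of 0.45 (SE 0.14) was not called by the test between treatments. The study had listed MMP as lower under soil N100 at (v + 35) in 2014, so its larger rise in control berries is not independent of that choice. Photosynthesis genes had a median LFC of -0.19 in soil N100 berries, with 1 of 24 called lower, and LEA genes one of -0.40.

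In control berries of 2013 the same week gave 680 genes called higher (3.93%) and 784 lower (4.53%) of 17298 tested, 8.46% together. Rescaling by median ratios turned that balance to 854 higher and 494 lower. The 1464 calls of 2013 exceeded the 358 of 2014 with all libraries, but not the 1602 found in 2014 without replicate 2 of (v + 35). Leaving out any other control library of 2014 gave 58 to 478 calls. In 2013 there were 1149 to 1471 calls with 1 control library left out. Of the 354 called genes of 2014 that were also tested in 2013, 316 (89.3%) had the same sign there, against 57.7% of the 16899 genes tested in both years. The LFC of the 2 years correlated at r = 0.379 (rho = 0.256) across the 16899 genes, at 0.065 (rho = 0.099) across the called genes that rose in 2014 and at 0.451 (rho = 0.317) across those that fell. In the same direction 150 genes were called in both years, 42.4% of the 354 and 10.2% of the calls of 2013, and 5 were called in opposite directions. PORA fell in both years (-0.96 and -0.97), as did TCH4 (-1.39 and -1.42), the AP2 domain factor (-1.56 and -1.73), SPX2 (-1.72 and -1.30) and TMK1 (-1.44 and -1.23). COBL4 (1.00 and 0.91), VEP1 (1.03 and 1.03), MMP (0.73 and 0.80) and PP2-B13 (0.64 and 1.37) rose in both. In 52 genes the change was called in the same direction in all 3 comparisons.

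Other genes had a different change in 2013. The 7 wound-responsive genes of the stem VIT_12s0057 had LFC of -0.52 to 0.75 in 2013 and none was called there, whereas in soil N100 berries of 2014 they ranged from 0.32 to 1.40 and 2 were called. The test of the difference between years called 3 of the 7 as higher in 2014. Photosynthesis genes had a median LFC of -0.10 in 2013 with none of 24 called. Of the 4 called in 2014, Rubisco activase differed between the years (adjusted p = 0.039), while PSAF, LHCB4 and the photosystem II subunit did not pass that test (0.144, 0.255 and 0.0543). LEA genes had a median LFC of 0.55 in 2013 with 2 of 10 called higher, and no difference between years was tested for either list as a whole. SPX3 had an LFC of 0.40 in 2013 and NAC61 one of 0.52, not called, and both differed between the years by -1.47 and -1.23. Across all genes the test of the difference between years called 902 of 16899 (5.34%; 2.56% higher and 2.78% lower in 2014), of which 55 were among the 354 genes called in 2014. That test uses the control libraries of 2014, so these genes were not picked independently of it. Year, clone and rootstock changed together and cannot be told apart.

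**Figure D5:**
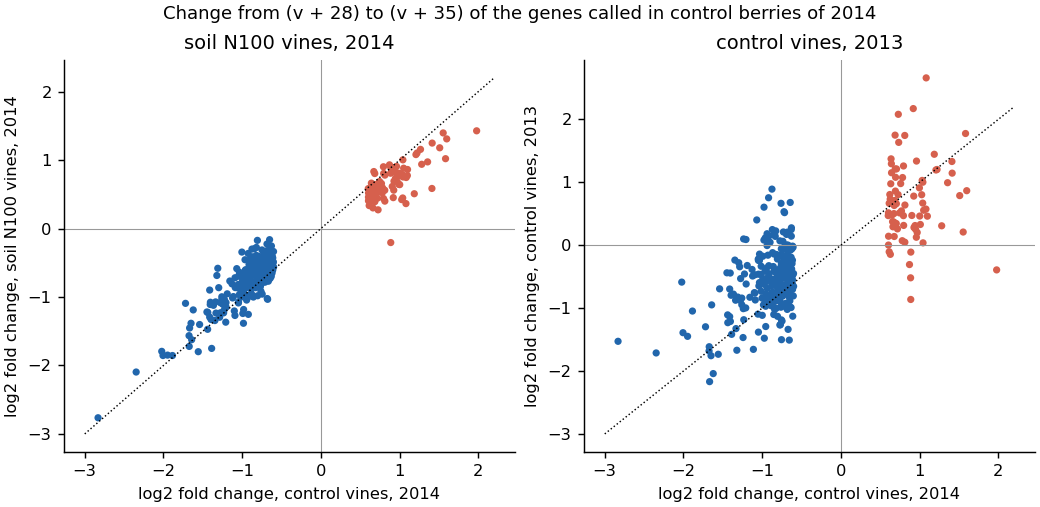
Each point is 1 gene called in control berries of 2014, red where it rose and blue where it fell, with its LFC in those berries on the horizontal axis. The vertical axis is the LFC of the same week in soil N100 berries of 2014 (left) and in control berries of 2013 (right), and the dotted line marks equal changes. On the left 357 of 358 genes keep their sign, and on the right 316 of 354.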

How the data were processed

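Gene levels were deposited as RPKM. For these the authors used CASAVA 1.8.2 for base calls and TopHat2 2.0.10 with Bowtie2 2.1.0 for alignment to the 12X genome of grapevine, kept reads that aligned to 1 place and counted them per V1 gene with HTSeq 0.5.4p3. Their library kit does not mark strand, so reads from places where genes overlap cannot be assigned by strand, and near-identical genes lose reads. Whole reads were recovered for 99.996% of the genes listed in 2014 (tolerance 0.001 reads). Replicates were compared at the level of log2(RPKM + 0.5).

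Tables were handled in Python 3.11.15 with numpy 2.4.6 and pandas 2.3.3, and plots drawn with matplotlib 3.10.9. Each year was fitted with limma 3.58.1 (R 4.3.3), its 4 groups each having a mean, with an intensity trend and Benjamini-Hochberg adjustment over genes averaging 0.5 RPKM or more. Years were fitted apart, since clone and rootstock changed, and their changes were compared by the difference over its standard error with Welch-Satterthwaite degrees of freedom. Thresholds (adjusted p of 0.05, LFC of 0.6) follow the study. Scripts were tested on simulated data. An exact permutation test of 3 against 3 libraries cannot go below p = 0.1, so none is given. Fold changes on the log2(RPKM + 0.5) scale understate changes of low genes.

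Names came from the tables of the study, which describe 648 of the 26740 gene identifiers; none matched the reference gene table used here, so no positions or sequences are given. Of the described genes 579 were tested in 2014. Lists were built from words in these descriptions. Named genes were the 15 largest rises and 15 largest falls among described called genes whose libraries do not overlap, the 5 largest of all genes, up to 4 called members of each list (or its most abundant member), the 10 most abundant described genes, 5 of the genes that the study names, and the 5 with the lowest adjusted p in each test of a difference. The exceptions are genes of the library that stands apart and of small counts, chosen after their values were seen. The members and lists were chosen with earlier results of these data known. Columns of the authors' own comparisons were not used.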

Additional observations from a re-analysis of the deposited data

Results flagged for a closer look

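In control berries the change from (v + 28) to (v + 35) differed between 2014 and 2013, by a test of the difference itself, in 902 genes. Among the genes named here, the difference (LFC of 2014 minus LFC of 2013) was 1.34 for the wound-responsive gene VIT_12s0057g00070, 1.40 for VIT_12s0057g00090 and 1.18 for VIT_12s0057g00120. It was -1.47 for SPX3 (VIT_15s0048g00190), -1.23 for NAC61 (VIT_17s0000g09310), -0.96 for the B-box zinc finger gene VIT_14s0068g01380 and -0.70 for Rubisco activase (VIT_13s0019g02050). These genes were named because they were called in control berries of 2014. The same libraries enter the difference, so the genes were not picked independently of it. The 5 genes with the lowest adjusted p in that test have no description and were not called in 2014: the difference was -2.30 for VIT_02s0087g00910, -2.25 for VIT_10s0116g01650, -1.07 for VIT_01s0011g02950, 1.07 for VIT_01s0011g04760 and 1.42 for VIT_06s0004g03340. The years differ in clone and rootstock as well as in season, and which of these goes with the differences cannot be told apart.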

How the results depend on the processing

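Of the 53 named genes that were called, 9 were called in every fit that left out 1 control library, and no named gene that was called changed direction under any alternative. Against 358 calls, the count was 214 with no filter on low values, 837 with no threshold on the fold, 93 at an LFC of at least 1, 798 at an unadjusted p and 4 with the 6 control libraries alone, and it ran from 58 to 1602 with 1 library left out. Other pseudocounts (0.1 and 1), a minimum of 2 RPKM, limma-voom, quantile normalization, median ratios and trend-free moderation gave 297 to 395. Whether a replicate number stands for the same field block at both stages is not stated. Deviations of control libraries with the same number were not positively correlated between the stages (-0.166, -0.341 and -0.049), which cannot settle it, and the samples were not paired. A fit with the replicate number as a block gave 212 calls in control berries and 55 in soil N100 berries.

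For soil N100 berries (126), the count was 37 with no filter, 229 with no threshold on the fold, 47 at an LFC of at least 1, 518 at an unadjusted p and 23 to 39 with 1 library left out. The difference between treatments (0) gave 28 at an unadjusted p with the fold threshold kept, against 156 without it. It gave 0 to 1 with 1 library left out, the 1 being a lipid-binding wall protein gene (VIT_03s0017g02200), chosen after its value was seen. In 2013 (1464) there were 4266 with no threshold on the fold and 352 at an LFC of at least 1. The difference between years (902) gave 1823, 214 and, at an unadjusted p, 1568, and 372 to 2190 with 1 library left out. Higher calls were 46.4% of those of 2013 and 47.9% of those between years, and 63.4 and 33.9% after rescaling by median ratios. The causes were not tested. With 3 libraries a stage the median SE was 0.12, and changes under 0.6 were left out by the rule for calls. Without that threshold 837 genes passed in control berries of 2014, against 358 with it, and small changes may still have gone undetected.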

Other observations

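Further described genes that passed the test in control berries of 2014 lie outside the lists and were chosen after their values were seen. Both genes described as catalase 2, the peroxisomal enzyme that breaks down hydrogen peroxide, were lower at (v + 35), VIT_00s0698g00010 with an LFC of -0.98 (SE 0.21, limma adjusted p = 0.0292) and VIT_04s0044g00020 with -0.94 (SE 0.20, adjusted p = 0.0297), while their LFC in control berries of 2013 were 0.08 and -0.01. THI1 (VIT_10s0116g00530), which makes the thiazole part of thiamine, had an LFC of -0.996 (adjusted p = 0.0228), and CYP38 (VIT_14s0066g01410), a cyclophilin needed to assemble photosystem II in Arabidopsis, one of -0.84 (adjusted p = 0.0144). The chloride channel gene CLC-B (VIT_14s0068g02190) had an LFC of -0.98 (adjusted p = 0.0161) and was called lower in soil N100 berries and in 2013 as well.

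By the functional categories that the tables of the study give, 7 of 34 cell wall genes fell and 1 rose, and 31 had an LFC below 0 (median -0.61), a called share of 23.5%. Over all described genes 13% were called and 399 of 579 had an LFC below 0 (median -0.22), and over all genes 2.08% were called. Of 46 genes in the RNA category, which holds the transcription factors, 8 fell and 1 rose. Of 36 transport genes 2 fell and none rose. These categories were counted after the values of the lists were known, and their genes were chosen by the study for a response to nitrogen.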
